A study of Homo sapiens with 7 samples.

Results

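The enzymes that make and salvage the building blocks of DNA were examined as a group for binding of the retinoblastoma protein Rb at their promoters. The group held 9 genes out of 19962 protein-coding genes on chromosomes 1 to 22 and X. They were RRM1, RRM2 and RRM2B (the subunits of ribonucleotide reductase), TYMS, DUT, TK1 and DTYMK (thymidylate supply), DCK (deoxynucleoside salvage) and CTPS1 (CTP synthesis). The genes were chosen by name for what they do, with earlier results of these data known. A peak was assigned to a gene when it lay within the gene or touched a window around any of its transcription start sites (TSSs). The window ran from 2000 bp before to 500 bp after the TSS. The 7 peak lists came from CUT&RUN, in which a nuclease tethered to an antibody cuts out the DNA around a bound protein. All libraries were from the ZR-75-1 line, established from a breast cancer that expresses the oestrogen receptor, grown with DMSO or with 500 nM palbociclib for 4 days. The Rb antibody gave 4 libraries of parental cells, 2 for each treatment, and 2 libraries of RB1 knockout (RB1 KO) cells, 1 for each treatment. The remaining library, of parental cells with palbociclib, was made with IgG2a, which recognises no target. The study's methods describe the knockout cells as CRISPR-edited and expanded from single cells, so that loss of RB1 and descent from one cell cannot be told apart.

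Deoxynucleotides are made from ribonucleotides by ribonucleotide reductase, and thymidylate is made separately from dUMP by thymidylate synthase. Salvage kinases return free deoxynucleosides to the same pools. Many of these genes are classical targets of E2F transcription factors and are expressed around S phase, and Rb that has not been phosphorylated by cyclin-dependent kinases binds E2F at such promoters. Palbociclib inhibits CDK4 and CDK6, the kinases that start Rb phosphorylation. The comparison of palbociclib with DMSO therefore asks where Rb is found on chromatin when these kinases are inhibited, with RB1 KO cells and IgG2a as the backgrounds.

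All 9 genes carried a promoter peak in both palbociclib lists, whereas RRM2 and TYMS alone among them did so in both DMSO lists. Here and below, a gene counts as called in both lists of a treatment only where the peaks of the replicates overlap each other. Among all protein-coding genes, 34.5% had a promoter peak in both palbociclib lists and 2.83% in both DMSO lists. RRM1 had a peak in 1 DMSO list only, a state shared by 3.69% of all genes. At the other 6 genes, CTPS1, DCK, DTYMK, DUT, RRM2B and TK1, the palbociclib peak overlapped no peak of either DMSO list. Such a gained promoter peak was present at 27.9% of all genes. No peak was called at any of the 9 genes in either RB1 KO list, in which 0.01% of all genes had a promoter peak. TYMS was the 1 gene of the 9 with a peak in the IgG2a list, against 1.95% of all genes.

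By library, 2 and 3 of the 9 genes had a promoter peak with DMSO and 9 and 9 with palbociclib, a difference in means of 6.5 genes. The 2 treatments did not overlap, but with 2 libraries against 2 the two-sided exact permutation p was 0.333, the smallest that 6 splits allow. The lists differed in the same way as a whole, with 996 and 816 peaks for DMSO, 8399 and 8256 for palbociclib, 65 and 51 for RB1 KO cells with DMSO and palbociclib, and 2648 for IgG2a. Only 4 and 5 of the RB1 KO peaks lay on chromosomes 1 to 22 and X. The RB1 KO and IgG2a groups held 1 library each and had no replicate check. When every parental list was cut to its best 816 peaks by −log10 q, 1 of the 9 genes, TYMS, was called in both palbociclib lists, since most of these peaks ranked below that place in the longer palbociclib lists. Sequencing depth is not recorded in peak lists, and its part in these counts was not tested.

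The height of a peak is given here as the fold enrichment at its summit, the ratio of fragment pileup to local background. The authors called the peaks against IgG, so IgG signal enters the background of the Rb lists. In the palbociclib lists the strongest promoter peak of each gene lay between 5.88 and 16.7. The median over the 9 genes of the mean of both palbociclib lists was 13.3, against 8.46 over the 6890 protein-coding genes called in both. DCK stood highest and DTYMK lowest. Each value can be compared with others of its list but does not count molecules.

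**Figure D1:**
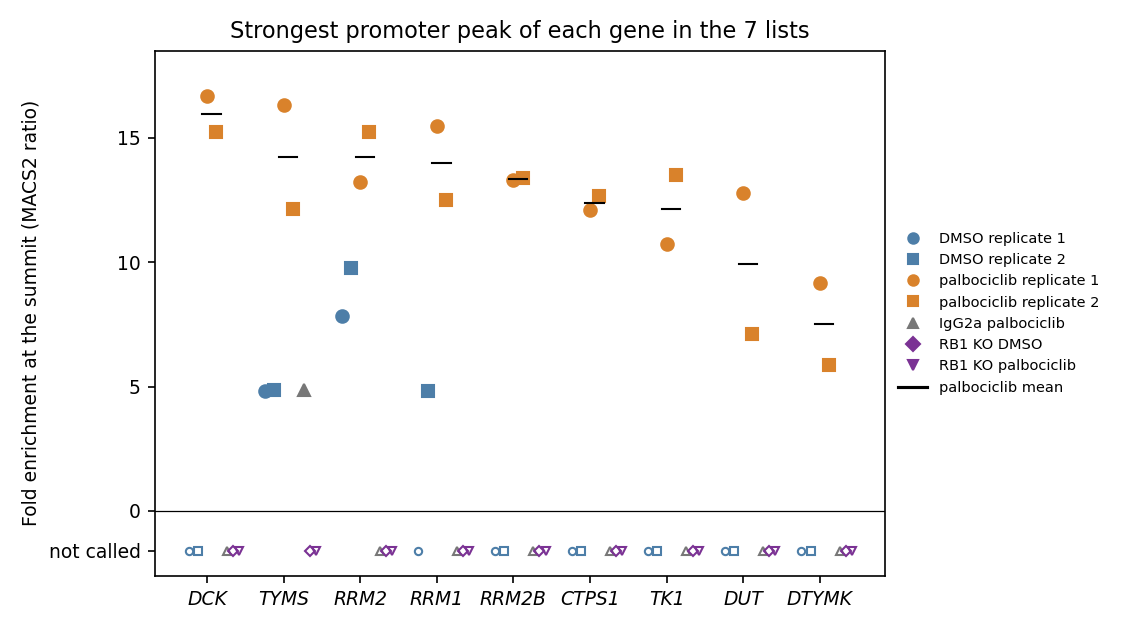
Fold enrichment at the summit of the strongest promoter peak of each gene (y axis, ratio) for the 9 genes (x axis, ordered by the palbociclib mean, black line). Filled symbols are single libraries and open symbols on the lowest row mark lists without a peak at that gene. The palbociclib points span 5.88 to 16.7, the DMSO points are present at TYMS, RRM2 and RRM1 and lie below the palbociclib points of the same gene, and every RB1 KO symbol is on the lowest row.

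RRM2 encodes the small subunit of ribonucleotide reductase, whose level rises in S phase and sets the enzyme's activity. It lies at chr2:10120698-10211725 on the plus strand (ENSG00000171848.16, GRCh38). Fold enrichment at RRM2 was 7.85 and 9.75 with DMSO and rose to 13.2 and 15.2 with palbociclib. No RRM2 peak was called with IgG2a or in RB1 KO cells. The means were 8.80 ± 1.34 and 14.2 ± 1.43 (SD, n = 2 each), and the ranges did not overlap. The DMSO values were the highest of the 9 genes, above 79.6% and 86.5% of the peaks of their lists. The fragment pileup recovered at the summit was 12 (95% exact Poisson interval 6.20 to 21.0) and 14 (7.65 to 23.5) with DMSO and 25 in each palbociclib list (16.2 to 36.9). These intervals cover counting error only.

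The summit at RRM2 was in a different place under each treatment. With DMSO it lay 273 and 277 bp upstream of the canonical TSS, and with palbociclib 7 bp upstream and 129 bp downstream of it. The DMSO summits lay 138 and 134 bp past another annotated RRM2 start site. The group means were 336 bp apart, more than the 4 bp between the DMSO libraries and the 136 bp between the palbociclib libraries. The palbociclib peaks, chr2:10122333-10123119 and chr2:10122085-10123122, also covered both DMSO summits. A second RRM2 peak was called with palbociclib alone, over an upstream start site, with fold enrichments of 7.49 and 5.51 and summits 2133 and 2135 bp upstream of the canonical TSS. It overlapped no DMSO peak.

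RRM1 encodes the large, catalytic subunit and lies at chr11:4094707-4138932 on the plus strand (ENSG00000167325.15). Its fold enrichment was 15.5 and 12.5 with palbociclib (14.0 ± 2.13, SD, n = 2). A peak of 4.83 was called in DMSO replicate 2 and none in replicate 1. That peak, chr11:4094831-4095042, rested on a pileup of 10 (4.80 to 18.4), against 37 and 31 with palbociclib. Its summit 170 bp downstream of the canonical TSS was close to the palbociclib summits at 206 and 215 bp. At the background recovered from the palbociclib lists, a peak of RRM1 in DMSO replicate 1 would have needed a fold enrichment of 3.99. Smaller enrichment was not detectable there.

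The start of RRM1 intron 1, under the palbociclib peak, is shown because it holds the densest run of E2F-type letters among the 9 genes. The stretch is chr11:4095032-4095231, plus strand, from the GRCh38 genome, and the capitals mark matches to the E2F motifs defined with the other motifs further on. It holds 3 copies of the shortened motif whose starts are 9 bases apart, and 2 of them also match the full motif.
RRM1 intron 1: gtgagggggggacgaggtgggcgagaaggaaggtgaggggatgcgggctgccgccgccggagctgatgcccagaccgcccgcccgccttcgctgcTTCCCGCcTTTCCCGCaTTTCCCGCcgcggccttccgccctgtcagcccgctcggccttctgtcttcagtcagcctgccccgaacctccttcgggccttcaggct
The 2 full matches were centred 133 and 142 bp downstream of the stronger palbociclib summit. At RRM2 a full match was centred 244 bp downstream of the stronger palbociclib summit, in intron 1, and it is shown with 10 bases on each side (chr2:10123099-10123126).
RRM2 intron 1: gggcgtcttgGCGCCAAAgccgcattgt

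RRM2 and TYMS could be followed at sites called in all 4 parental lists, of which there were 476. On the log2 scale the difference between palbociclib and DMSO in fold enrichment at RRM2 was 0.70 (SE 0.235, adjusted p = 0.0109, limma over all 476 sites, Benjamini-Hochberg). At TYMS it was 1.54 (SE 0.239, adjusted p = 2.52e-05, limma). Both were higher with palbociclib in 2 of 2 libraries. At 99.8% of the sites palbociclib was higher at an adjusted p under 0.05 (limma), so the calls themselves set neither gene apart. Without palbociclib replicate 1 the RRM2 difference was 0.80 (adjusted p = 0.0532, limma), and without replicate 2 it was 0.59 (adjusted p = 0.115, limma). The median log2 difference over all sites was 1.90, RRM2 exceeded 0.840% of the sites, and TYMS exceeded 16.8%. Relative to each library's own median over the 476 sites, RRM2 differed by -1.23 (adjusted p = 0.0613, limma) and TYMS by -0.38 (adjusted p = 0.441, limma). These sites are those with a DMSO peak to begin with, and the 7 other genes have no DMSO value in at least 1 list and were not tested.

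**Figure D2:**
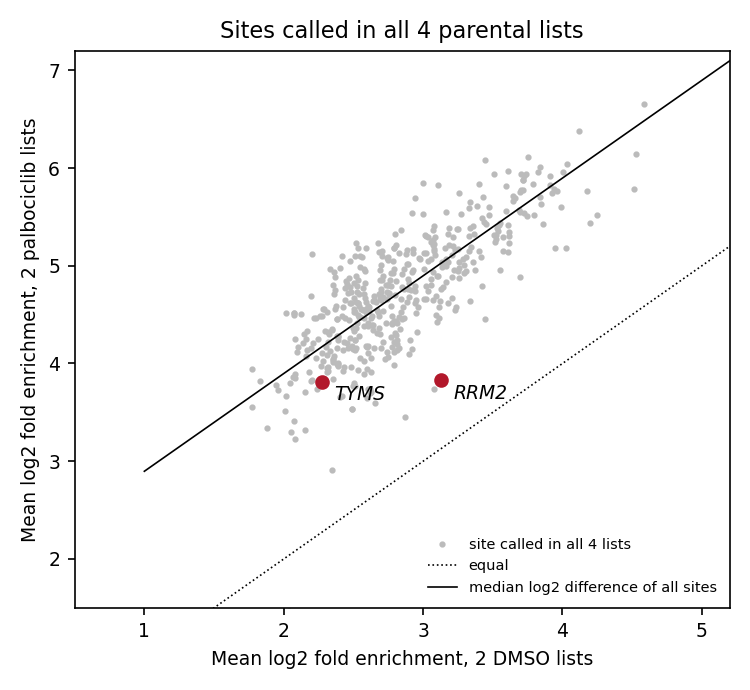
Mean log2 fold enrichment in the 2 DMSO lists (x axis) against that in the 2 palbociclib lists (y axis) at the 476 sites called in all 4 parental lists (grey), with RRM2 and TYMS in red. The dotted line marks equal values and the solid line the median log2 difference of 1.90. RRM2, at 0.70, lies well below the solid line and above the dotted one, and TYMS, at 1.54, lies nearer to the solid line.

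TYMS encodes thymidylate synthase, which methylates dUMP to dTMP and is the target of fluoropyrimidine drugs. It lies at chr18:657653-673578 on the plus strand (ENSG00000176890.16). Fold enrichment was 4.81 and 4.87 with DMSO, 16.3 and 12.1 with palbociclib and 4.85 with IgG2a. The palbociclib mean was 14.2 ± 2.98 and the DMSO mean 4.84 ± 0.0429 (SD, n = 2 each), and the ranges did not overlap. The IgG2a value lay between the DMSO values, but the control behind the IgG2a list is not given. The DMSO summits also lay elsewhere, 604 and 553 bp downstream of the TSS. The values are therefore not like for like. The pileups were 18 and 16 at the DMSO summits, 60 and 68 with palbociclib, and 8 (3.45 to 15.8) with IgG2a. The IgG2a peak, chr18:657732-657896, fell inside both palbociclib peaks, with its summit 170 bp downstream of the TSS, and its part in the TYMS values was not tested. The strongest peak of DMSO replicate 1 did not overlap the IgG2a peak.

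At TYMS, too, the DMSO summits with the highest fold enrichment were away from the canonical start site. They lay 604 and 553 bp downstream of it, in intron 1 of the canonical transcript but 7 and 58 bp from another annotated TYMS start site, whereas the palbociclib summits were 17 bp upstream and 142 bp downstream. The group means differed by 516 bp, against 51 bp between the DMSO and 159 bp between the palbociclib libraries. DMSO replicate 2 had a further peak over the canonical start site, chr18:657558-657832, with a fold enrichment of 3.55 and a summit at 99 bp. This peak overlapped the IgG2a peak. Its pileup was higher than that of the intron peak, 21 against 16, over a recovered background of 5.19 against 2.49. The 516 bp therefore rests on choosing the peak by fold enrichment and not by pileup. Across the 476 sites the median distance between the treatments' mean summits was 34.5 bp, and the distance was smaller than that of RRM2 at 98.5% of the sites and smaller than that of TYMS at 99.6%. This distance was computed after the peak positions at the 9 genes had been seen. A short stretch upstream of the TYMS start site is shown (chr18:657604-657631), with the E2F match in capitals, because the stronger palbociclib summit lay 19 bp downstream of the centre of this match.
TYMS promoter: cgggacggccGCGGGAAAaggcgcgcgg
The TYMS promoter is shared with TYMSOS, a long non-coding RNA that starts 56 bp upstream on the opposite strand, and a peak there cannot be assigned to either gene.

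DUT encodes dUTPase, which keeps uracil out of DNA and supplies dUMP to thymidylate synthase. It lies at chr15:48331011-48343373 on the plus strand (ENSG00000128951.14) and is known for start sites that give mitochondrial and nuclear forms. Its fold enrichment was 12.8 and 7.1 with palbociclib, the widest gap between replicates of the 9 genes (9.93 ± 4.01, SD, n = 2), and no peak was called with DMSO. The peaks were 1234 and 1233 bp wide, wider than 96.8% and 97.2% of the peaks of their lists, and covered both the canonical TSS and a start site downstream of it. The summits lay between these start sites, 542 and 380 bp past the canonical TSS and 132 and 294 bp before the next. The 2 E2F matches of DUT lay just past this next start site and are shown to place them in the same peak (chr15:48332145-48332172 and chr15:48332160-48332187, overlapping each other).
DUT first match: ggcggggctgGCGGGAAAtttcggtttt
DUT second match: aaatttcggtTTTGGCGCgctccctgcg

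TK1 encodes cytosolic thymidine kinase, which salvages thymidine in dividing cells and is a serum marker of proliferation. It lies at chr17:78174091-78187233 on the minus strand (ENSG00000167900.12). Fold enrichment was 10.8 and 13.5 with palbociclib (12.1 ± 1.94, SD, n = 2), and no peak was called with DMSO, in RB1 KO cells or with IgG2a. The summits lay 3 and 83 bp upstream of the canonical TSS. The TK1 promoter held 2 copies of the NFY motif within 100 bp of the stronger summit, the 1 gene of the 9 with any that near. They are shown on the TK1 strand with the motif in capitals (chr17:78187084-78187108 and chr17:78187115-78187139).
TK1 nearer the start site: ccggctcgtgATTGGccagcacgcc
TK1 farther upstream: ccgggcgctgATTGGccccatggcg
The gene AFMID starts 306 bp upstream on the opposite strand, beyond the end of both TK1 peaks, which still met its promoter window.

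DTYMK encodes thymidylate kinase, the step after TYMS and TK1 that phosphorylates dTMP. It lies at chr2:241675747-241686944 on the minus strand (ENSG00000168393.13). Its palbociclib values, 9.18 and 5.88, were the lowest of the 9 genes (7.53 ± 2.34, SD, n = 2), with pileups of 17 and 11 (5.49 to 19.7). No peak was called with DMSO. The summits lay 110 bp downstream and 147 bp upstream of the canonical TSS, and ING5 starts 270 bp upstream on the opposite strand. The nearest peak beyond the assignment rule at any of the 9 genes was also at DTYMK, 3193 bp past the end of the assigned region in palbociclib replicate 1, with a fold enrichment of 4.06.

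DCK encodes deoxycytidine kinase, which salvages deoxycytidine and activates drugs such as gemcitabine and cytarabine. It lies at chr4:70992538-71030914 on the plus strand (ENSG00000156136.10). Fold enrichment was 16.7 and 15.2 with palbociclib (16.0 ± 1.02, SD, n = 2), the highest mean of the 9 genes and above that of 83.6% of the protein-coding genes called in both palbociclib lists. No peak was called with DMSO, although a fold enrichment of 3.99 would have sufficed there at the palbociclib background. The summits were 55 and 45 bp upstream of the canonical TSS, with pileups of 48 and 46. An E2F match lay 79 bp downstream of the stronger summit and is shown with its flanks because DCK and TYMS were the members with a match this near (chr4:70993660-70993687).
DCK start site: ctgcctccgcGCGCCAAAgtcaaacccc
Over the palbociclib lists the promoter peaks of SLC22A31 (16.9 and 15.3), ZBTB34 (16.8 and 15.0) and C16orf87 (17.0 and 15.4) were nearest to DCK by Euclidean distance in log2 fold enrichment, at 0.0231, 0.0245 and 0.0271, among 5634 genes that had no DMSO peak either. With 2 values a gene, this likeness rests on little.

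CTPS1 encodes CTP synthase 1, which makes CTP from UTP and so feeds the dCTP pool. It lies at chr1:40979300-41012565 on the plus strand (ENSG00000171793.17). Fold enrichment was 12.1 and 12.6 with palbociclib (12.4 ± 0.380, SD, n = 2), without a peak in the other lists. The summits lay 35 and 104 bp downstream of the canonical TSS. CTPS1 had the narrowest palbociclib peaks of the strongest peaks at the 9 genes, 386 and 483 bp.

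Both strands were read for motifs up to 100 bp from the stronger palbociclib summit, in 10 windows for the 9 genes, since RRM2 had a pair of peaks. The stronger summit was that of the replicate with the larger −log10 p, which at every gene but RRM2B was also the one with the larger fold enrichment. The E2F motif was any of TTTCCCGC, TTTCGCGC, TTTGCCGC or TTTGGCGC, and the shortened form lacked the first T, so that each full match is also a shortened one. The full motif was present in the windows of DCK and TYMS, that is in 2 of 10, against 5.97% of 6046 promoter peak windows and 2.82% of 19970 windows of the same length at start sites. The shortened form was present at DCK, RRM2 (the upstream peak), TK1 and TYMS, against 24.2% of promoter peak windows. Widening the search to 250 bp on each side gave the full motif at DCK, DUT, RRM1, RRM2 and TYMS, in 5 of 10 windows, against 13.3% of promoter peak windows. RRM1, RRM2 and TYMS, the genes with a DMSO peak, were all among these 5, but the windows were centred on palbociclib summits. Among all promoter peaks, 24.7% of the windows of those overlapping a DMSO peak held the full motif, against 11.0% of the others. The full matches at RRM1 and RRM2 lay outside the DMSO peaks of these genes. The TYMS match lay outside the DMSO peaks with the highest fold enrichment and inside the further peak of DMSO replicate 2.

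The other motifs were counted in the same 10 windows. The NFY motif CCAAT was present at TK1 only, against 25.9% of windows, and the cell cycle homology region motif TTTGAA at DUT only, against 3.36%. The SP/KLF motif GGGCGG was present in 7 of 10 windows, against 70.5%. The ETS motif CCGGAAGT and the CRE motif TGACGTCA were present in none, against 3.24% and 1.16%, and the E-box CACGTG at DCK, against 5.57%. The windows were rich in G and C, from 63.7% to 78.1% with a median of 71.6%, beside a median of 70.6% over all promoter peak windows. Widened to 250 bp on each side, the search gave the NFY motif in 5 of 10 windows, against 44.7% of promoter peak windows. These were the windows of CTPS1, DTYMK, RRM2 (both peaks) and TK1. A match describes letters in a window and not a bound factor.

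RRM2B encodes the small subunit that ribonucleotide reductase uses outside S phase and after DNA damage, and it is induced by p53. It lies at chr8:102204502-102238961 on the minus strand (ENSG00000048392.13). Fold enrichment was 13.3 and 13.4 with palbociclib (13.3 ± 0.0673, SD, n = 2), the closest replicates of the 9 genes, and no peak was called in the other lists. Pileups were 28 and 25. The summits lay 101 and 301 bp upstream of the canonical TSS, the latter the farthest from a start site of all palbociclib summits at the 9 genes. Fold enrichment at RRM2B was thus close to that at RRM2 (14.2) and RRM1 (14.0) with palbociclib, but RRM2 alone of the 3 subunits had a peak in both DMSO lists.

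**Figure D3:**
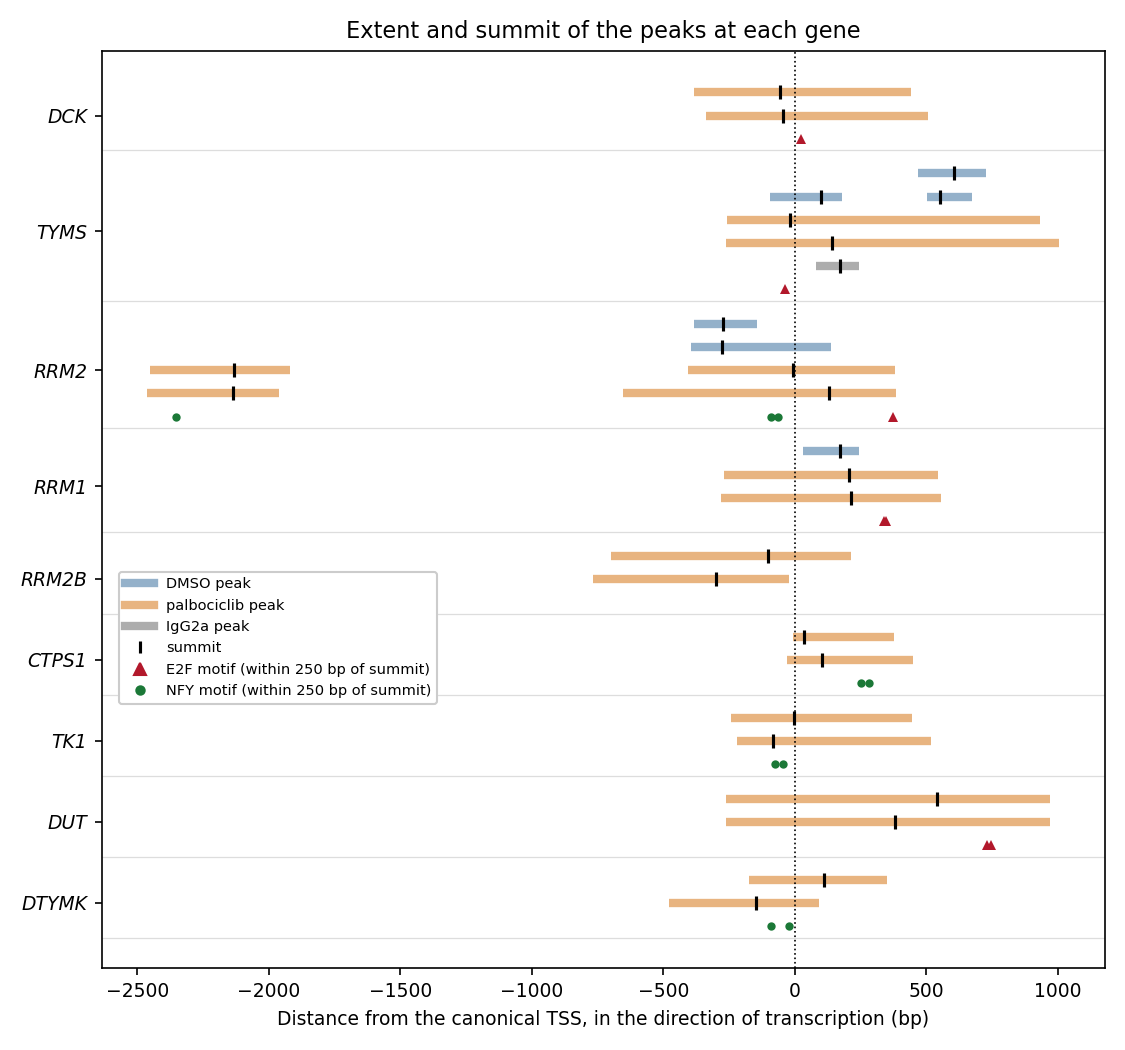
Extent (bars) and summit (black ticks) of every peak at the 9 genes, by distance in bp from the canonical TSS in the direction of transcription (x axis), with 1 row for each list that had a peak there. Triangles and dots mark E2F and NFY motif matches within 250 bp of the palbociclib summit with the larger −log10 p. Apart from the upstream RRM2 pair, the palbociclib bars lie across or beside the dotted start site, the RRM2 DMSO summits lie 273 and 277 bp upstream, and the strongest TYMS DMSO summits lie 604 and 553 bp downstream.

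In all, 27 peaks were assigned to the 9 genes, 20 in the palbociclib lists, 6 in the DMSO lists, 1 in the IgG2a list and none in the RB1 KO lists, and each of them met the promoter rule. The palbociclib summits had a median distance of 62 bp from the nearest start site, with 13 of 20 within 100 bp. This median was 83 bp without palbociclib replicate 1 and 24 bp without replicate 2. The DMSO summits had a median of 87.5 bp. Palbociclib peaks were 386 to 1266 bp wide, with a median of 802 bp, beside medians of 459 and 445 bp over the whole palbociclib lists. DMSO peaks were 172 to 534 bp wide, with a median of 250.5 bp, beside 264 and 233 bp over their lists. At the sites called in all 4 lists, the palbociclib peak was 5.72 times as wide as the DMSO peak at TYMS and 2.35 times at RRM2. The median over the 476 sites was 2.67. The TYMS ratio uses the DMSO peaks with the highest fold enrichment. It leaves out the further peak of DMSO replicate 2, which was 275 bp wide and lay inside both palbociclib peaks.

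The order of the 9 genes by mean palbociclib fold enrichment was DCK, TYMS, RRM2, RRM1, RRM2B, CTPS1, TK1, DUT and DTYMK. Of the 8 neighbouring pairs, RRM2B and CTPS1 were the one pair whose values did not overlap, with a difference of 0.961. The other neighbours did not differ beyond the spread of their replicates. The means exceeded those of 71.7% to 83.6% of the called protein-coding genes at all members but DUT, at 60.5%, and DTYMK, at 41.6%. Given the background recovered from the palbociclib lists, the 6 genes without a DMSO peak would have been called from a fold enrichment of 3.53 at DUT to 4.50 at DTYMK. Their absence from the DMSO lists therefore does not show that Rb was absent there.

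Other genes of nucleotide synthesis gave a similar picture with more exceptions. Of 40 such genes, 29 had overlapping promoter peaks in both palbociclib lists, 2 in both DMSO lists, 21 a gained peak, and none a peak in RB1 KO cells. The shares over all protein-coding genes were 34.5%, 2.83%, 27.9% and 0.01%. In the thymidylate and folate cycle 8 of 9 genes were called in both palbociclib lists. MTHFD1, which supplies one-carbon units on folate, was the highest of these at 30.0 and 32.1 (31.0 ± 1.51, SD, n = 2) and had DMSO values of 12.4 and 11.1. The lowest was its mitochondrial relative MTHFD2, at 5.61 and 3.90. TYMSOS was the other gene with a peak in both DMSO lists, through the promoter it shares with TYMS. It is a non-coding RNA, its values are those of the TYMS peak, and the 40, 29, 9 and 8 genes above include it. The shares over all genes cover protein-coding genes only. All 3 genes of pyrimidine synthesis de novo were called, from UMPS at 13.3 and 12.3 to DHODH at 4.89 and 4.29.

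Purine synthesis de novo had 8 of 12 genes with overlapping peaks in both palbociclib lists. PFAS, named after its values were seen, had a peak in each list, at 6.60 and 4.52, but these did not overlap and it was not counted. PPAT and PAICS, which share 1 peak between divergent genes, were highest at 18.8 and 22.6, and GART was the lowest of the 8 at 8.05 and 4.68. Salvage and control of the deoxynucleotide pool had 10 of 16, the lowest of which was NME2, a nucleoside diphosphate kinase, at 5.13 and 5.82. The 6 genes of this list not called in both palbociclib lists included SAMHD1, which degrades deoxynucleotides, and DGUOK, the mitochondrial kinase for purine deoxynucleosides, neither of which had a peak in any list. These 2 were named after their values were seen. The medians of the palbociclib means were 10.1 for salvage, 11.3 for the folate cycle, 11.3 for pyrimidine and 8.36 for purine synthesis, against 13.3 for the 9 enzymes and 8.46 for all called genes. These medians are descriptions and were not tested against each other. The folate cycle median counts TYMSOS, whose mean of 14.2 comes from the TYMS peak.

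**Figure D4:**
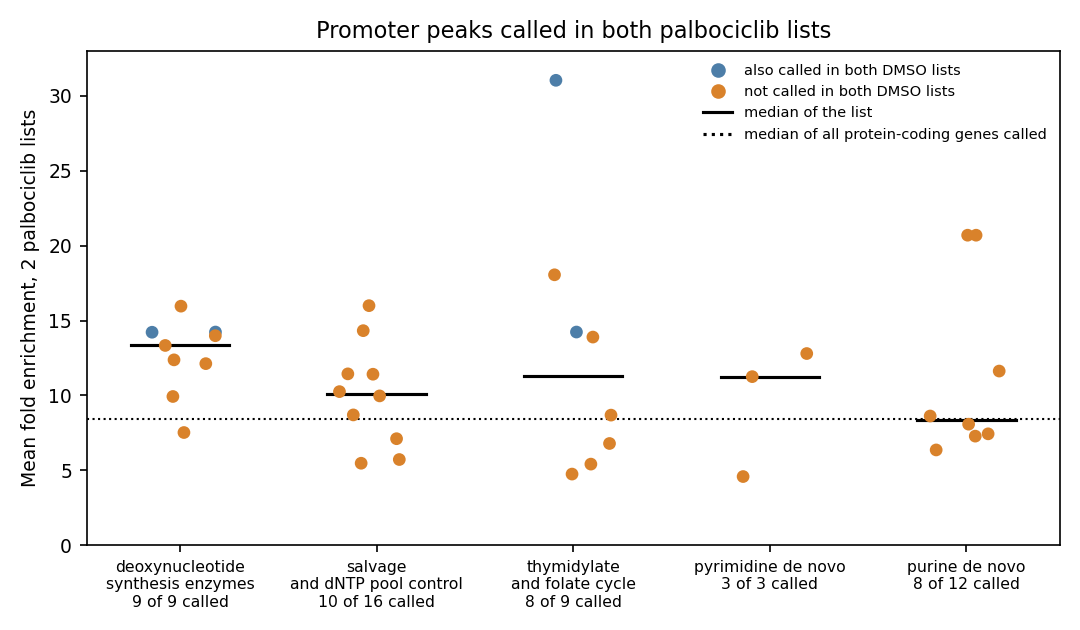
Mean fold enrichment in the 2 palbociclib lists (y axis, ratio) of each gene called in both, for the 9 enzymes and the 4 lists of other nucleotide synthesis genes (x axis, with the number called), with list medians as bars and the median of all called protein-coding genes, 8.46, as a dotted line. Blue points were also called in both DMSO lists. The folate cycle points include TYMSOS, at the value of the TYMS peak. The enzymes' median of 13.3 stands above the other list medians, and MTHFD1 at 31.0 is the highest single gene.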

How the data were processed

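Rb CUT&RUN libraries of ZR-75-1 cells were grouped by their titles. The authors state that reads were trimmed and mapped with Bowtie2 2.3.4.1 to the hg38 genome. They left out blacklisted and mitochondrial reads, did not remove duplicates, and called peaks for each library separately with MACS2 2.2.7.1 against IgG at a q-value cutoff of 0.05. Which control served the IgG2a list is not given in the sources used here. Each list holds the authors' fold enrichment (a ratio) at the summit, its −log10 p and −log10 q, a score derived from q, and the peak's position. The lists give no depth, so its effect on calls is unknown. Replicates were described as biological, but their p-values measure only the spread between these libraries.

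TSSs came from GENCODE 44 (GRCh38), and no deposited peak ran past a chromosome end of the reference genome. Peaks were shared from 1 bp of overlap. Pileups were recovered from the deposited fold enrichment and −log10 p. Where several peaks met a promoter, the strongest was used. Log2 fold enrichment at the 476 sites called in all 4 parental lists was fitted with limma 3.58.1 (R 4.3.3) without a replicate block. The study's own differential analysis needs reads and was not repeated. The deviations of same-numbered libraries had a correlation of 0.0748 over these sites, so the numbers were not taken to pair the libraries. The fit and the overlaps were tested on simulated data. RefSeq promoters of 8 members (14 sequences, GRCh38) equalled the genome used here. Named were all 9 members, the highest and lowest gene of each list of other nucleotide synthesis genes, those with a peak in both DMSO lists, genes sharing a member's promoter, the 3 genes most like the highest member, and the peaks nearest the edge of the assignment rule. One gene that this rule names is not reported here. The members and lists were chosen with earlier results of these data known. Alternatives covered cutoffs, list length, promoter width, start sites, overlap, scaling, pileup and each replicate left out.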

Additional observations from a re-analysis of the deposited data

How the results depend on the processing

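All 9 genes kept a promoter peak in both palbociclib lists at −log10 q of at least 5, at fold enrichment of at least 5, with a promoter from 500 bp upstream to 100 bp downstream, with canonical start sites, and without any 1 library. Without parental peaks that overlap an IgG2a peak, an alternative chosen after seeing the data, 8 did, as TYMS dropped out. When peaks had to overlap by 50% of both, 7 genes had a gained peak, against 28.5% of all genes. RRM1 and TYMS then joined the gained genes. DTYMK dropped out, as its palbociclib peaks overlapped each other by less than this. Cutting every parental list to its best 816 peaks left 1 gene, TYMS, 0 gained genes and 3 of the 40 other genes of nucleotide synthesis, and turned the difference in genes per library to -1 (exact permutation p = 0.667). This follows from the cut, since most palbociclib peaks at these genes ranked below that place. In the DMSO lists, −log10 q of at least 5 and fold enrichment of at least 5 each left 1 gene, RRM2. Distance to the canonical start site alone had a median of 119.5 bp, and without 1 palbociclib library the median to any start site ranged from 24 to 83 bp. The E2F motif was found in 1 window at 50 bp, 5 at 250 bp and 4 with the shortened form.

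Centring each library on its median reversed the log2 differences, to -0.38 at TYMS and -1.23 at RRM2, and left 0 sites of the 2 past the threshold, since the median shift is removed. RRM2 then had an adjusted p of 0.0613 (limma). With a replicate block TYMS stayed at 1.54 (adjusted p = 5.67e-05, limma) and RRM2 at 0.70 (adjusted p = 0.0104, limma), with the same calls. Leaving out 1 library at a time gave 0.54 to 0.85 at RRM2, where adjusted p rose to 0.0532 without palbociclib replicate 1 and 0.115 without palbociclib replicate 2, and 1.33 to 1.76 at TYMS. The number of member sites past the threshold then ranged from 1 to 3, the third being RRM1 without DMSO replicate 1. In each of these fits the arm with 1 library was assumed to vary like the other. With recovered pileups the values were 1.72 at TYMS and 0.95 at RRM2, with log2(fold enrichment + 1) 1.37 and 0.64, and no member site was left when peaks had to overlap by 50% of both. The number of libraries and the unknown depth limit every comparison.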
